A study of Arabidopsis thaliana with 6 samples.

Results

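The wall-associated kinases (WAKs), WAK-like kinases and LRK10-like kinases are plant receptor kinases that sit in the plasma membrane. Their members were 37 *Arabidopsis thaliana* loci given by name, and a locus was kept when the array's annotation named it alone for at least 1 probe set. This left 16 of the 37 loci, among 13355 genes with such a probe set. The 16 were 9 of 20 WAK-like and 7 of 12 LRK10-like loci. None of the 5 WAK genes proper, WAK1 to WAK5, was among them, so the values describe WAK-like and LRK10-like genes only. Another 5 loci shared a probe set with a second gene, and 16, which include RFO1, PR5K and WAKL10, lack a named probe set; these were not analysed here by name.

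Receptors of these families carry an extracellular part, a single span through the membrane and a cytoplasmic serine/threonine kinase. WAKs bind pectin, the acidic polysaccharide of the plant cell wall, and its oligogalacturonide fragments, which are released when the wall is damaged and act as danger signals. The LRK10-like family is named after a kinase gene of wheat found beside a leaf rust resistance locus. RFO1, a WAK-like kinase, is known for resistance to *Fusarium* wilt.

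The samples were whole seedlings, 10 days old, given purified protease IV of *Pseudomonas aeruginosa* PA14 at 20 nM for 1 h, and mock controls, with 3 arrays in each group. Protease IV is a secreted serine protease of this bacterium. All seedlings grew in liquid MS medium with sucrose in 24-well plates, with fresh medium on day 8. No ecotype or mutant is named in the labels, and they call the mock samples both nontreated and mock control without saying whether buffer was added. The labels call the samples biological replicates without giving the number of wells or cultures behind each, so the p-values rest on a spread that could be technical in part. Values are log2 expression values from Affymetrix ATH1 arrays, and a difference of 1 is a 2-fold change.

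Across the tested genes, arrays of 1 group correlated at 0.996 to 0.998 and arrays of different groups at 0.953 to 0.963 (genes are not independent replicates). The tissue label was checked against marker genes. The 5 measured leaf markers averaged 11.8 to 11.9 on the protease IV arrays and 12.3 to 12.4 on the mock arrays, and 4 of the 5 were lower after protease IV (limma, adjusted p under 0.05). The 4 root markers averaged 7.22 to 7.35 on the protease IV arrays and 7.30 to 7.38 on the mock arrays, and 1 was lower. PYK10 carried this average, with means of 12.5 after protease IV and 12.6 in mock. The other root markers had group means of 5.27 to 5.90, under the array medians of 6.07 to 6.13. Beside these counts of lower markers, 22.8% of all genes tested were lower at that threshold. Among genes with a mean over all arrays of at least 5, 35.8% were lower. Pollen markers, as a negative control, averaged 3.57 to 3.72 on the protease IV arrays and 3.59 to 3.69 on the mock arrays, near background, and 0 of 4 passed in limma, with 0 at an unadjusted p under 0.05. The 3-prime minus 5-prime difference of the actin control, a sign of RNA quality, was 1.81 ± 0.28 on the protease IV arrays and 1.58 ± 0.01 on the mock arrays (SD, n = 3 each; two-sided exact permutation p = 0.1, the smallest this design allows). For GAPDH it was 0.09 ± 0.08 on the protease IV arrays and 0.01 ± 0.05 on the mock arrays, and for ubiquitin 0.17 ± 0.02 on the protease IV arrays and 0.17 ± 0.01 on the mock arrays, with overlap in both (SD, n = 3 each; exact permutation p = 0.3 and p = 0.8). The part of these shifts in the kinase results was not tested.

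The comparison asks which of these receptor genes change in seedlings exposed to the bacterial protease for 1 h. After protease IV, 6 of the 16 measured kinase genes were higher and 0 were lower at an adjusted p under 0.05 in limma, with 0 lower also at an unadjusted p under 0.05. Of all genes tested, 11.4% were higher and 22.8% lower at that threshold, and the members' 37.5% higher stands against the 11.4%. These shares of all genes depend on the scaling between arrays: with cyclic loess 15.4% were higher and 11.4% lower, and the counts of kinase genes were again 6 and 0. The rises were seen in 4 of 7 LRK10-like and 2 of 9 WAK-like genes. Of the 16 kinase genes, 5 were higher by at least 2-fold, beside 4.51% of all genes at the same adjusted threshold. The median difference was 0.13 over the 16 kinase genes, 1.41 over the LRK10-like and -0.04 over the WAK-like genes, beside -0.06 over all genes. In both groups, 6 of the 9 WAK-like and 3 of the 7 LRK10-like genes had means below 3.97, near background. The subfamily medians therefore differ in how many genes can be read. Of the rest, 2 of 3 WAK-like and 4 of 4 LRK10-like genes were higher, beside 15.2% of all genes not below that level in both groups. In whole seedlings, more cells of a type and more RNA per cell cannot be told apart.

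**Figure D1:**
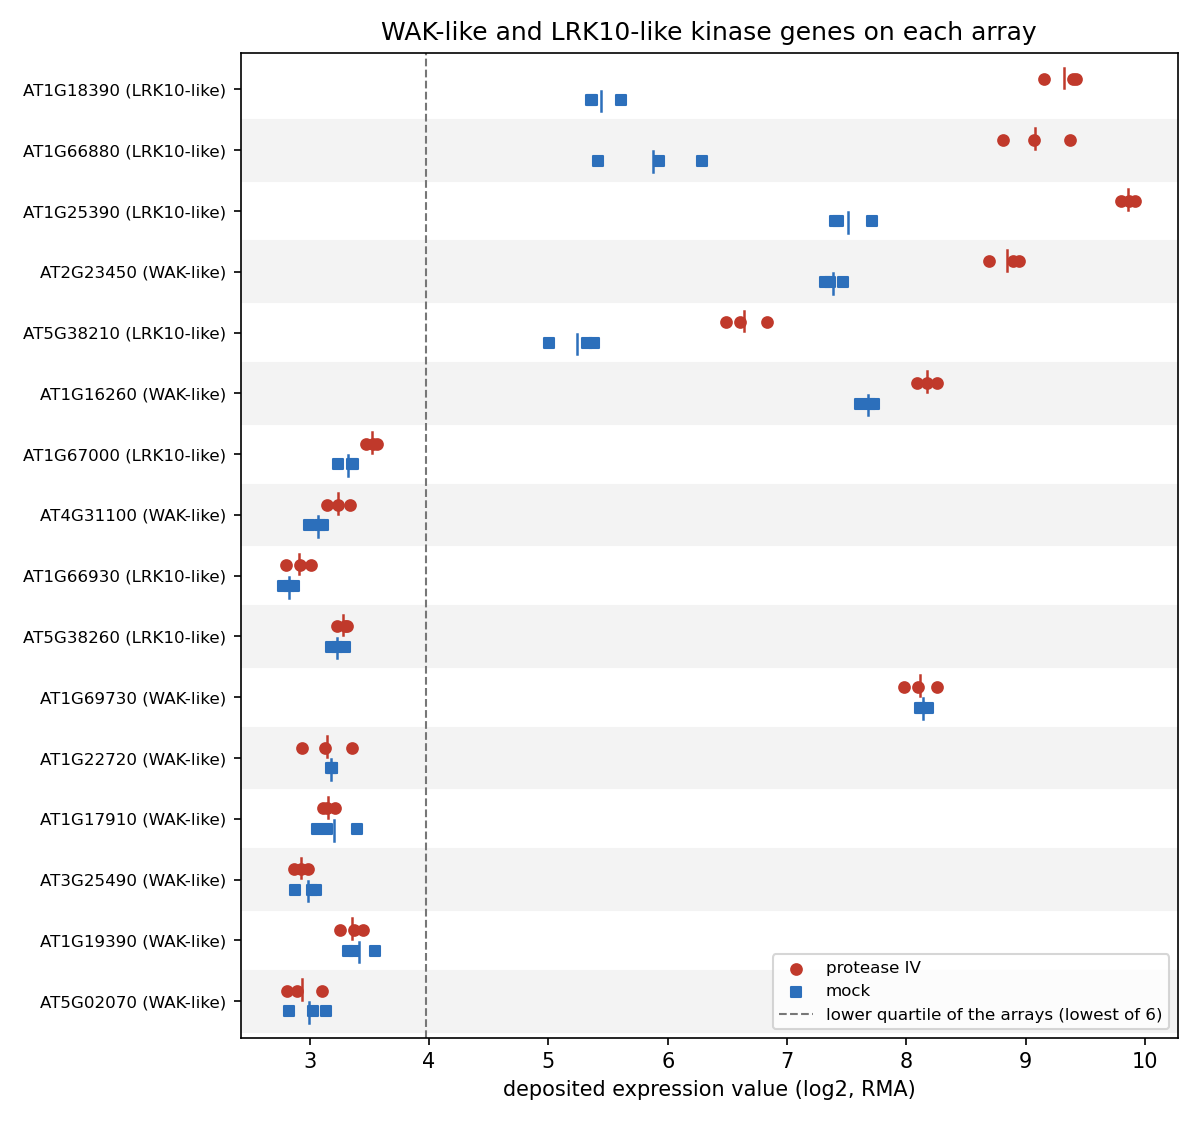
Deposited log2 expression of the 16 measured kinase genes (rows, ordered by difference) on each array, with red circles for the 3 protease IV arrays, blue squares for the 3 mock arrays and a short line at each group mean; the dashed line is the lowest lower quartile of the 6 arrays. In the upper 8 rows every protease IV value lies to the right of every mock value, as in 14.7% of all genes. The upper 6 rows are the genes with an adjusted p under 0.05 in limma, and 9 of the other 10 rows lie left of the dashed line in both groups.

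Among the LRK10-like genes AT1G18390 rose most. It read 9.40, 9.15 and 9.42 in protease IV replicates 1, 2 and 3, against 5.61, 5.36 and 5.35 in mock replicates 1, 2 and 3. The lowest treated array thus stood well above the highest mock array, and the spread within each group was small. The difference was 3.88 (SE 0.10; limma, adjusted p = 6.42e-10), which is 14.8-fold with a 95% interval of 12.6 to 17.2. Ranked by difference, AT1G18390 was gene 79 of the 13355. A second probe set is also named for AT1G18390 alone, and on the same 6 arrays it read 6.91, 6.76 and 6.85 in protease IV replicates 1 to 3, against 3.63, 4.08 and 4.15 in mock replicates 1 to 3. The groups did not overlap on this set either. Its difference was 2.89 (SE 0.13; limma over all probe sets, adjusted p = 4.30e-08), or 7.40-fold, and its mock mean of 3.95 is under the lower quartile of each array, so the fold is that of measured values near background. The cause of the gap between the folds of the 2 sets was not tested.

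AT1G66880 was next, with 9.07, 8.81 and 9.37 in protease IV replicates 1 to 3, against 5.92, 6.29 and 5.42 in mock replicates 1 to 3. Its mock arrays were the most spread of any rising kinase gene (5.88 ± 0.44, SD, n = 3), yet the highest mock value stayed far below the lowest protease IV value. The difference of AT1G66880 was 3.21 (SE 0.20; limma, adjusted p = 5.11e-07), or 9.23-fold with a 95% interval of 6.78 to 12.6.

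AT1G25390 read 9.92, 9.86 and 9.80 in protease IV replicates 1 to 3, against 7.40, 7.43 and 7.71 in mock replicates 1 to 3. This was the tightest treated group of the 6 rising genes (9.86 ± 0.06, SD, n = 3). It rose by 2.34 (SE 0.09; limma, adjusted p = 1.45e-08), or 5.08-fold with a 95% interval of 4.39 to 5.87. Of all genes tested, 1.71% had a difference as large as or larger than that of AT1G25390.

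AT5G38210 read 6.61, 6.49 and 6.83 in protease IV replicates 1 to 3, against 5.38, 5.01 and 5.32 in mock replicates 1 to 3. The groups were again separate, by more than the range within either. The difference of AT5G38210 was 1.41 (SE 0.12; limma, adjusted p = 5.83e-06), or 2.65-fold with a 95% interval of 2.21 to 3.18.

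The other 3 LRK10-like genes, AT1G67000, AT1G66930 and AT5G38260, were dim in both groups, which here means a group mean below 3.97, the lowest of the lower quartiles of the 6 arrays. AT1G67000 read 3.47, 3.57 and 3.53 in protease IV replicates 1 to 3, against 3.35, 3.24 and 3.36 in mock replicates 1 to 3. Its groups did not overlap, but it did not pass the threshold (difference 0.20, 95% interval 0.04 to 0.37; limma, unadjusted p = 0.0209, adjusted p = 0.0588). AT1G66930 averaged 2.91 ± 0.10 after protease IV and 2.82 ± 0.04 in mock (SD, n = 3 each), and AT5G38260 averaged 3.28 ± 0.05 after protease IV and 3.23 ± 0.06 in mock (SD, n = 3 each); both overlapped between the groups. At such signals a low transcript and an absent one look alike, so these readings do not bound a change in the gene.

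**Figure D2:**
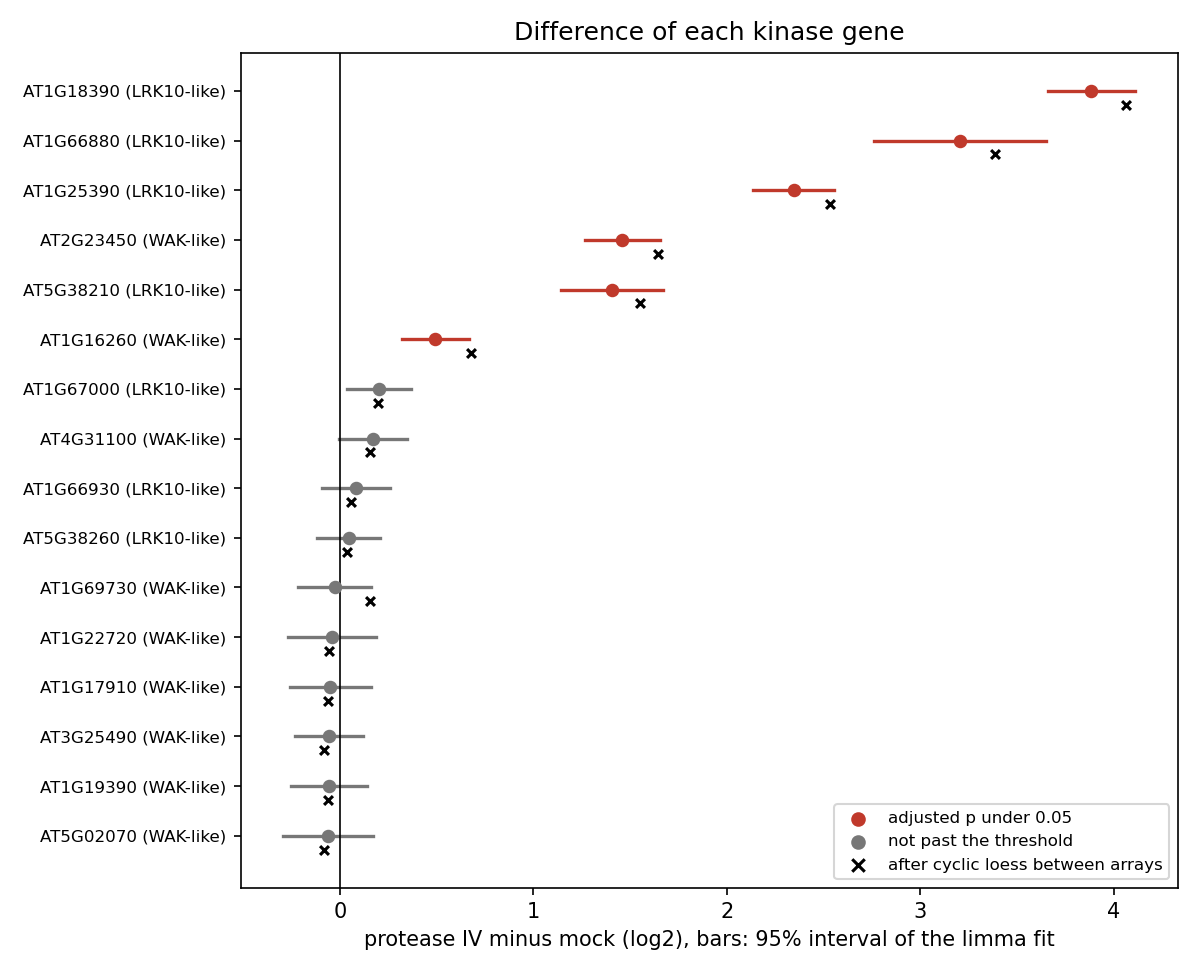
Difference of each measured kinase gene, protease IV minus mock on the log2 scale, with the 95% interval of the limma fit, in red where the adjusted p is under 0.05 and in grey otherwise; black crosses give the difference after cyclic loess scaling between the arrays. The 6 red genes lie between 0.49 and 3.88, and their crosses lie further right, while the grey genes lie between -0.06 and 0.20.

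Of the WAK-like genes, AT2G23450 changed most. It read 8.89, 8.69 and 8.94 in protease IV replicates 1 to 3, against 7.36, 7.47 and 7.32 in mock replicates 1 to 3. No array of one group reached the range of the other. The difference of AT2G23450 was 1.46 (SE 0.09; limma, adjusted p = 3.66e-07), or 2.75-fold with a 95% interval of 2.40 to 3.15.

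AT1G16260 rose by less. It read 8.09, 8.26 and 8.17 in protease IV replicates 1 to 3, against 7.73, 7.61 and 7.69 in mock replicates 1 to 3, and the groups were separate. The difference of AT1G16260 was 0.49 (SE 0.08; limma, adjusted p = 0.000600), or 1.41-fold with a 95% interval of 1.25 to 1.59. It was the only rising kinase gene under 2-fold in this fit.

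AT1G69730, the other WAK-like gene with a signal above the lower quartile, did not pass. It read 8.10, 7.98 and 8.26 in protease IV replicates 1 to 3, against 8.11, 8.18 and 8.12 in mock replicates 1 to 3. The mock arrays lay inside the range of the treated ones. The difference of AT1G69730 was -0.03 with a 95% interval of -0.22 to 0.16 (limma, adjusted p = 0.858). As a fold of protease IV over mock, that interval runs from 0.861 to 1.12. The sign of the difference turned under cyclic loess, where it was 0.16, and without protease IV replicate 2, where it was 0.04.

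The remaining 6 WAK-like genes, AT4G31100, AT1G22720, AT1G17910, AT3G25490, AT1G19390 and AT5G02070, were dim in both groups, with single values between 2.81 and 3.55. In AT4G31100 the lowest protease IV value, 3.14, lay above the highest mock value, 3.11, with a difference of 0.17 that did not pass (limma, adjusted p = 0.126). The other 5 overlapped between the groups. Altogether 8 of the 16 kinase genes had every protease IV value above every mock value, which 14.7% of all genes did, and none had the reverse, which 31.0% of all genes did.

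Of the 16 genes, 9 were dim in both groups, or 56.2%, against 27.2% of all genes tested. None of these 9 passed in limma, and among all genes dim in both groups 1.38% were higher and 1.13% lower. An unadjusted p under 0.05 was seen in 1 of the 9, beside 218 of the 3636 genes dim in both groups. The 6 rising genes lie among the 7 kinase genes that are not dim, all 7 of which had mock means of at least 5.24. Among all genes not dim in both groups, 15.2% were higher. This split uses the measured levels themselves and is given as a description only.

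**Figure D3:**
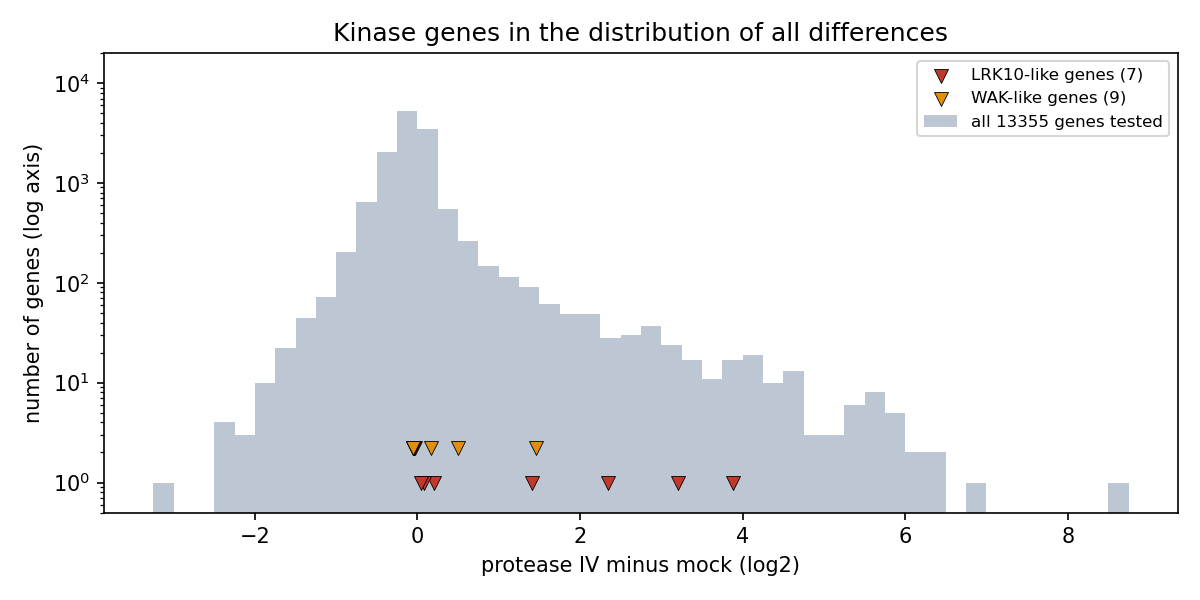
Number of genes (log axis) by difference, protease IV minus mock on the log2 scale, for all 13355 genes tested, in bins of 0.25, with triangles at the 7 LRK10-like genes (red) and the 9 WAK-like genes (orange); the height of the triangles carries no value. The LRK10-like genes spread from 0.05 to 3.88, and most WAK-like genes sit near the centre of the distribution.

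Loci of these families often lie side by side. In RefSeq gene order, AT1G66880 and AT1G66930 belong to a run of 4 listed LRK10-like loci on chromosome 1, and AT5G38210 and AT5G38260 to a run of 5 on chromosome 5, where each next locus lies at most 5 annotated genes from the one before. In both runs the first locus rose, and the other locus with a probe set of its own was dim in both groups and did not pass. Each of these runs also holds a pair of loci that share a probe set, and both shared sets were higher after protease IV, by 1.30 for AT1G66910 and AT1G66920 (limma over all probe sets, adjusted p = 3.07e-06) and by 0.58 for AT5G38240 and AT5G38250 (adjusted p = 0.00349), without saying which locus of a pair moved. On chromosome 4 the WAK-like loci AT4G31100 and AT4G31110 form a run of 2. AT4G31100 was dim in both groups and did not pass. The set that AT4G31110 shares with the unlisted AT4G31115 was lower (difference -0.65; limma over all probe sets, adjusted p = 0.000125). The 7 loci of the run from AT1G16090 to AT1G16160 and the 5 WAK loci were not analysed here. The other 4 rising genes, AT1G18390, AT1G25390, AT2G23450 and AT1G16260, had no listed locus within that distance. The nearest measured unlisted genes on either side of the 6 rising genes were 12 in all, at most 6 annotated genes away. Of these 12, 1 was higher, 0 were lower and 11 did not pass (limma), beside 11.4% higher and 22.8% lower among all genes. So few genes do not tell the neighbourhood from the rest of the genome. The gene that rose, AT1G25400, lies 2 annotated genes from AT1G25390 and differed by 3.26 (limma, adjusted p = 2.57e-10); it was singled out after its value was seen. The other 11 differed by -0.18 to 0.08.

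Pectin is the wall polymer that WAKs bind, and genes listed for its synthesis, modification and breakdown were looked up in the same fit. Those listed for synthesis, GAUT1, QUA1, TSD2 and GAUT7, lack a named probe set, so the values cover modification and breakdown only. Of 32 listed loci 13 were measured, of which 1 was higher and 3 were lower, or 7.69% and 23.1%, beside 11.4% and 22.8% of all genes; with cyclic loess the pectin counts were again 1 and 3, beside 15.4% and 11.4% of all genes. The median difference of the 13 was -0.10. ATPMEPCRB (AT4G02330), a pectin methylesterase of the class that removes methyl groups from pectin, read 8.46, 8.43 and 8.64 in protease IV replicates 1 to 3, against 5.55, 5.74 and 5.62 in mock replicates 1 to 3. The groups were far apart, with a difference of 2.87 (SE 0.09; limma, adjusted p = 1.69e-09), or 7.31-fold.

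All 3 lower pectin genes had separate groups, which the rule for naming them required. Every protease IV value lay below every mock value in 5 of the 13 measured pectin genes, beside 31.0% of all genes. AT3G07010 and AT1G04680 were separate in this way without passing. AT5G63180, listed as a pectate lyase, averaged 6.58 ± 0.21 after protease IV and 7.57 ± 0.10 in mock (SD, n = 3 each) and fell by 0.99 (limma, adjusted p = 4.44e-05). AT1G48100, listed as a polygalacturonase, averaged 5.56 ± 0.22 after protease IV and 6.46 ± 0.15 in mock (SD, n = 3 each) and fell by 0.90 (limma, adjusted p = 0.000172). AT4G24780, also listed as a pectate lyase, averaged 7.98 ± 0.10 after protease IV and 8.68 ± 0.10 in mock (SD, n = 3 each) and fell by 0.70 (limma, adjusted p = 9.87e-05). These 3 listings come from general knowledge, since the annotation used here gives only the locus. The other 9 measured pectin genes differed by -0.23 to 0.13 and did not pass; without protease IV replicate 2, AT1G67750 passed as well (difference -0.30; limma, adjusted p = 0.0458) and 4 were lower.

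A short list of 8 genes placed with WAK signalling had 2 measured members, both entered as oxidases of oligogalacturonides, the pectin fragments that act as danger signals. AT4G20830 read 11.38, 10.81 and 11.37 in protease IV replicates 1 to 3, against 7.76, 8.08 and 7.44 in mock replicates 1 to 3. Its groups were separate by several times their spread, with a difference of 3.43 (SE 0.18; limma, adjusted p = 1.16e-07), or 10.8-fold. AT1G11770 was dim in both groups and differed by -0.01 (limma, adjusted p = 0.941). GRP-3, a glycine-rich wall protein that binds WAK1, KAPP, a phosphatase that associates with receptor kinases, and the MAP kinases MPK3 and MPK6, which act downstream of WAKs, lack a named probe set and were not analysed here. The same holds for the listed AT1G01980. The listed AT4G20840 is named only on a set shared with AT4G20830, whose values are not given here.

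**Figure D4:**
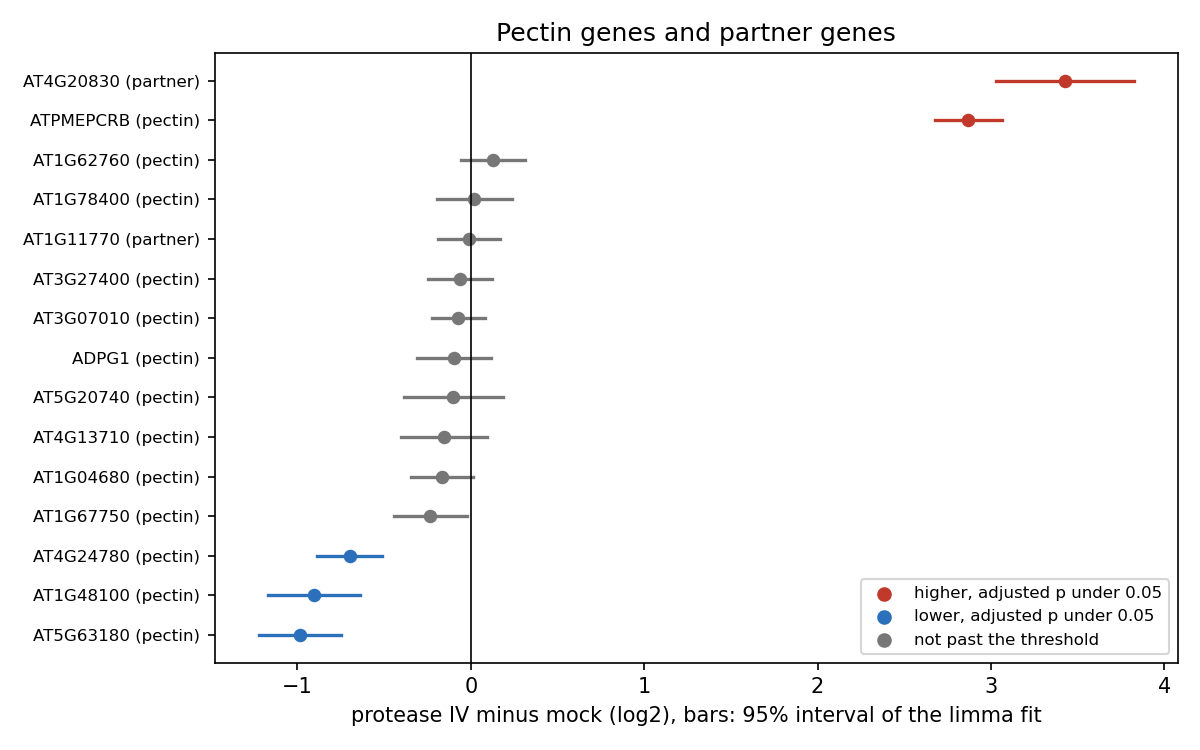
Difference of the 13 measured pectin genes and the 2 measured partner genes, protease IV minus mock on the log2 scale, with the 95% interval of the limma fit, coloured by direction where the adjusted p is under 0.05. AT4G20830 and ATPMEPCRB lie at 3.43 and 2.87, 3 pectin genes lie between -0.99 and -0.70, and the rest lie near 0.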

How the data were processed

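The deposited values are log2 expression values made by the authors with RMA in affy 1.36.1, per the submitters' processing notes; RMA corrects background, quantile-normalizes between arrays and gives 1 value per probe set. The sources used here do not give its settings. Quantile normalization hides a change in total mRNA, and dim signals are compressed. The table held 22810 probe sets, 64 of them controls. The platform annotation held by GEO, possibly outdated, named 1 gene for 13513 probe sets and several for 503, and 8730 were unnamed. Of the single-gene sets 13484 were matched to RefSeq (TAIR10.1) for locus and symbol. Per gene the brightest set by its mean over the 6 arrays was kept.

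Differences, protease IV minus mock, were fitted over the 13355 genes with limma 3.58.1 in R 4.3.3 (lmFit, eBayes, no covariates), two-sided, with Benjamini-Hochberg adjustment and a threshold of 0.05. Folds are 2 to the power of the difference, and SEs and 95% intervals come from this fit. The script was tested on simulated data. With 3 arrays a group, precision is limited by the number of arrays. The members, lists and tests were chosen with earlier results of these data known. All measured members are named, with up to 4 higher and 4 lower pectin genes of largest difference whose groups did not overlap, and all measured partner genes. Alternatives covered a replicate block, each array left out, scalings, filters, probe sets and variance models. Promoter and protein sequences were not used here.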

Additional observations from a re-analysis of the deposited data

How the results depend on the processing

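The same 6 kinase genes were higher and 0 were lower under all 16 alternatives tried, including each array left out, and the counts of LRK10-like and WAK-like genes, of rises of at least 2-fold and of higher pectin genes did not move either. The difference of AT1G18390 ranged from 3.84 to 4.06, of AT1G66880 from 2.98 to 3.41 and of AT1G16260 from 0.45 to 0.68. With only genes of a higher group mean of at least 5, where 7 of the 16 kinase genes were tested, their median difference was 1.46; centring on bacterial control probe sets gave a median of 0.08 over all 16, against 0.13. Over all genes, cyclic loess gave 2051 higher and 1526 lower (42.7% of calls lower, against 66.6% in the deposited scaling), and its share of higher genes was 15.4%. With all probe sets tested, 2888 were higher and 5689 lower, since more features entered. Genes that did not pass changed sign in 11 cases, with differences of at most 0.16 in size. AT1G67000 did not pass under any alternative that tested it.

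With the replicate number as a block, 6 kinase genes were higher and 0 lower, and 1441 genes were higher and 2738 lower in all. The labels do not say that a number marks a shared plate or day. Deviations of same-numbered arrays correlated at -0.18 to 0.04, and 2 of the 6 arrays correlated best with their own number. These were protease IV replicate 1 and mock replicate 1, a single pair seen from both sides (r = 0.04). Each array had 3 candidates in the other group, so this count does not show that the numbers mark pairs.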

Other observations

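Shared probe sets cover 5 further listed loci, and their values belong to a pair of loci that cannot be told apart on the array. The set named for AT1G66910 and AT1G66920, LRK10-like loci of the chromosome 1 run, read 8.55, 8.24 and 8.42 in protease IV replicates 1 to 3, against 7.17, 7.19 and 6.97 in mock replicates 1 to 3, a difference of 1.30 (limma over all probe sets, adjusted p = 3.07e-06). The set named for AT5G38240 and AT5G38250, LRK10-like loci of the chromosome 5 run, read 4.59, 4.24 and 4.18 in protease IV replicates 1 to 3, against 3.67, 3.94 and 3.67 in mock replicates 1 to 3, a difference of 0.58 (limma over all probe sets, adjusted p = 0.00349). Its mock mean of 3.76 is under the lower quartile of each array.

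In the opposite direction, the set named for AT4G31110, a WAK-like locus, and AT4G31115 read 4.19, 4.26 and 4.20 in protease IV replicates 1 to 3, against 4.94, 4.72 and 4.93 in mock replicates 1 to 3. Its difference was -0.65 (limma over all probe sets, adjusted p = 0.000125). These 3 sets entered no count of kinase genes.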
